A study of Mus musculus with 4 samples.

Results

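Among the regions of mouse embryonic stem (ES) cells in which acetylation of histone H3 at lysine 27 (H3K27ac) differed between NOD and B6 cells, 1087 of 11651 lay at an annotated promoter or in an annotated CpG island. A region was placed in the promoter-TSS class when the detailed annotation deposited with the list put its centre at a promoter, which reaches from 1000 bp upstream to 100 bp downstream of a transcription start site (TSS). It was placed in the CpG island class when that annotation named a CpG island instead. The B6 list held 332 promoter-TSS regions and 49 CpG island regions of 5525, and the NOD list held 512 and 194 of 6126. The classes exclude each other by construction, since a CpG island at a promoter is counted with the promoters, and most CpG island regions therefore lay downstream of a start site.

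Promoters are the stretches at which transcription begins, and nucleosomes that flank an active promoter carry both H3K27ac and trimethylation of histone H3 at lysine 4 (H3K4me3). Many mammalian promoters lie in CpG islands, GC-rich stretches in which the dinucleotide CG has not been depleted as in the rest of the genome, and promoters of housekeeping and developmental genes are usually of this kind. Promoters outside CpG islands more often belong to tissue-specific genes.

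ES cells isolated from embryos of C57BL/6 (B6) mice and of non-obese diabetic (NOD) mice, a strain that develops autoimmune diabetes, were compared. Both were grown in 2i, the combination of a MEK inhibitor and a GSK3 inhibitor, and neither group carried another treatment or a transgene per the labels, which do not name the cell line. Chromatin was precipitated with antibodies against H3K27ac (Active Motif) and H3K4me3, in 1 library for each strain and mark, so that there were 4 libraries and no replicates. Since the strain not listed served as the background in each call, every list is already a comparison of a pair of libraries, and regions marked alike in both strains are not in it. With 1 library per group, no difference between the strains could be tested, and strain and library cannot be told apart. The intervals given below are 95% Wilson intervals for shares and order-statistic intervals for medians. They treat regions as independent and cover counting error only.

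Sequences of short regions give examples of the base composition of the members. The highest-scoring regions of at most 300 bp in each class are shown, read from the plus strand of GRCm38.p6 (the build of mm10), with each CG dinucleotide in capitals. Regions that touched an exon of a protein-coding gene are not shown. In the promoter-TSS class of the B6 list these were a region 658 bp upstream of Hspa4, a heat shock protein gene (chr11:53301006-53301268, intergenic), and a region 411 bp upstream of Troap, which lay in an exon of the gene Gm34284 (chr15:99074431-99074693).
Hspa4: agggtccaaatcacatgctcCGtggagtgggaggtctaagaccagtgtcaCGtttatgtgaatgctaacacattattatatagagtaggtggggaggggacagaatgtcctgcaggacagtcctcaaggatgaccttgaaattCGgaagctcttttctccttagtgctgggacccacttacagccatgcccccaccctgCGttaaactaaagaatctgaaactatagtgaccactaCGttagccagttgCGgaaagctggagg
Troap: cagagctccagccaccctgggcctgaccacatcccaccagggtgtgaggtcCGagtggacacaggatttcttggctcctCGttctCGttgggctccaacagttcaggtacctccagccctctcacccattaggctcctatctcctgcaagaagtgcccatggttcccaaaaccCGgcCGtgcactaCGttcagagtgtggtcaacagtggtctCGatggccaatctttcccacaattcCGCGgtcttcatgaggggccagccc
In the promoter-TSS class of the NOD list they were a region 786 bp upstream of Kat7, a histone acetyltransferase gene, within an intron of Gm11520 (chr11:95310916-95311149), and an intergenic region 314 bp upstream of Cox6b1, a subunit of cytochrome c oxidase (chr7:30626349-30626582).
Kat7: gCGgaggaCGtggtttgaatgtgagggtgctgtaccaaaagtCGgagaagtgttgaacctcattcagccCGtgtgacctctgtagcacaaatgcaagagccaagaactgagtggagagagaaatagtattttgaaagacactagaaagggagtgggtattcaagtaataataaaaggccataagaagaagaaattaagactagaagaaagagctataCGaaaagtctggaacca
Cox6b1: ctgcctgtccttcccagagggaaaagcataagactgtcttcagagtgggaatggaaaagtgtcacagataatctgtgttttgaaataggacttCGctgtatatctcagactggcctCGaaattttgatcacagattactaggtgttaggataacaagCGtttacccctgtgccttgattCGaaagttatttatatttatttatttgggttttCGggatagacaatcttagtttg
In the CpG island class of the B6 list they were a region in the first intron of Cmtm7 (chr9:114781108-114781370) and a region 238 bp downstream of the start of 9130011E15Rik, in an exon of the gene 4930505N22Rik (chr19:45998119-45998381).
Cmtm7: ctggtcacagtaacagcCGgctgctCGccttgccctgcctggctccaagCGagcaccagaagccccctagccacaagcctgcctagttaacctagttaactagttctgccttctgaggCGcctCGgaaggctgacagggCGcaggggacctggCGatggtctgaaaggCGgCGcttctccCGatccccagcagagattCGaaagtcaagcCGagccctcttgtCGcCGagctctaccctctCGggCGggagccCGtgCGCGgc
9130011E15Rik: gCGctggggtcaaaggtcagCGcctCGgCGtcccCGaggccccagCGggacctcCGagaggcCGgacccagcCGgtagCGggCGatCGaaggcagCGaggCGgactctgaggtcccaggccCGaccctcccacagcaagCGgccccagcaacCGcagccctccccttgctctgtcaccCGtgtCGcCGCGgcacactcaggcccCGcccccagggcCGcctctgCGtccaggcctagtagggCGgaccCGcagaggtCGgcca
In the CpG island class of the NOD list, a region in the first intron of the zinc-finger gene Zfp827 is shown (chr8:79030276-79030569).
Zfp827: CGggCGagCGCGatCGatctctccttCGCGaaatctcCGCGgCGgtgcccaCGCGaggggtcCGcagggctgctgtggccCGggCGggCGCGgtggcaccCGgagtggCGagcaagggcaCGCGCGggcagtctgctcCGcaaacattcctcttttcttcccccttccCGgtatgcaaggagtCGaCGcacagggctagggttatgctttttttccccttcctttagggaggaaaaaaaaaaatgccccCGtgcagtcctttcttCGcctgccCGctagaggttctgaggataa

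The 4 promoter-TSS sequences held between 5 CG dinucleotides (Kat7 and Cox6b1) and 9 (Troap). The 3 CpG island sequences held 19 (Cmtm7), 27 (9130011E15Rik) and 29 (Zfp827). The ratio of observed to expected CG dinucleotides, in which 1 is the frequency given by the C and G content alone, was 0.388 in the Hspa4 region and 1.02 in the Zfp827 region. In each of the 4 promoter-TSS sequences it was below 0.6, with the highest value at Cox6b1 (0.566). These sequences do not stand for their class, in which 31.9% of B6 and 46.7% of NOD regions were CpG-rich by the measure given below.

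Regions of both classes made up a larger part of the NOD list than of the B6 list. Promoter-TSS regions were 6.01% of the B6 list (5.41 to 6.67) and 8.36% of the NOD list (7.69 to 9.08). CpG island regions were 0.887% of the B6 list (0.672 to 1.17) and 3.17% of the NOD list (2.76 to 3.64). In numbers, there were 1.54 times as many promoter-TSS regions in NOD as in B6 and 3.96 times as many CpG island regions. The regions with any other annotation were nearly even, with 5420 NOD and 5144 B6 regions (1.05 times as many). NOD thus contributed 60.7% of the promoter-TSS regions (57.3 to 63.9), 79.8% of the CpG island regions (74.3 to 84.4) and 51.3% of the others (50.4 to 52.3). The depth of the H3K27ac libraries is not stated in the files beyond a range of reads common to all libraries, and its part in these counts was not tested.

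**Figure D1:**
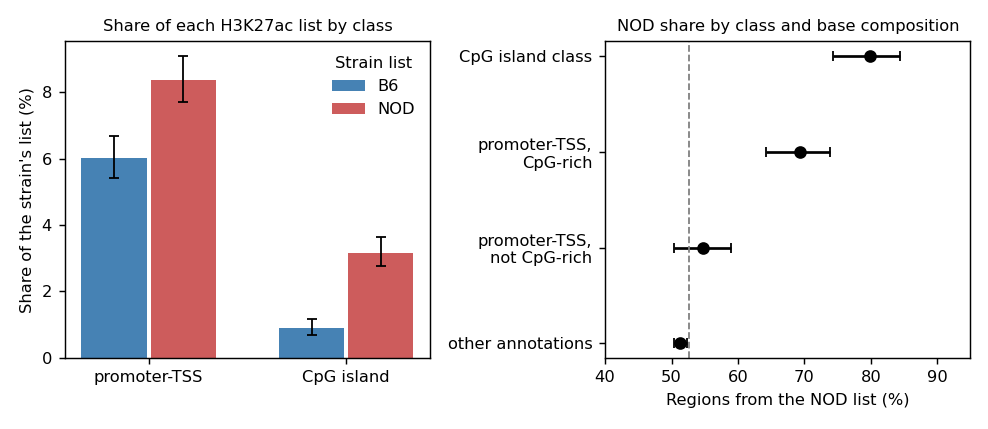
Left, share of each strain's H3K27ac list (%) in the promoter-TSS and CpG island classes, with bars for the share and whiskers for the 95% Wilson interval. Right, percentage of regions that came from the NOD list in each class, with the promoter-TSS class split by base composition and the dashed line at 52.6% for all regions; the CpG island class stands highest at 79.8%, and promoter-TSS regions that are not CpG-rich lie at 54.7%.

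The excess of NOD regions followed base composition within the promoter-TSS class. A window of 500 bp around the region centre was called CpG-rich when its GC content was at least 50% and its CpG ratio at least 0.6. By this measure 239 of the 512 NOD promoter-TSS regions were CpG-rich (46.7%, 42.4 to 51.0), against 106 of the 332 B6 regions (31.9%, 27.1 to 37.1). NOD contributed 69.3% of the CpG-rich promoter-TSS regions (64.2 to 73.9). Of the promoter-TSS regions that were not CpG-rich, 273 were in NOD and 226 in B6, and the NOD share of 54.7% (50.3 to 59.0) overlapped the range of all regions (51.7 to 53.5). Regions with other annotations showed the same split where they were CpG-rich, with 246 in NOD and 66 in B6 (78.8%, 74.0 to 83.0). Base composition thus moved with the strain of the list in the promoter-TSS class and in the regions with other annotations, and library and strain cannot be told apart here with 1 library per strain.

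The side of the start site mattered as well. Over all annotations, 351 NOD and 260 B6 regions were centred within 1 kb upstream of the nearest TSS, a NOD share of 57.4% (53.5 to 61.3). Within 1 kb downstream there were 668 and 292, a NOD share of 69.6% (66.6 to 72.4). The difference in side was carried by the CpG-rich windows, of which NOD contributed 64.6% upstream (57.8 to 71.0) and 81.0% downstream (77.6 to 84.0). In windows that were not CpG-rich, the NOD share was 54.0% upstream (49.2 to 58.7) and 51.9% downstream (46.8 to 56.9). Between 200 and 400 bp downstream, where the CpG island class was most frequent, there were 84 NOD and 18 B6 regions of that class, and 220 and 79 regions of any annotation.

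**Figure D2:**
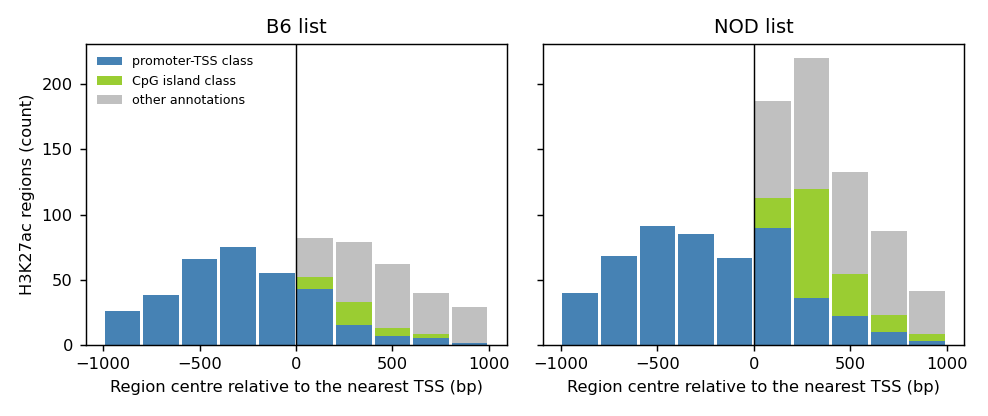
Number of H3K27ac regions in bins of 200 bp by the position of the region centre relative to the nearest annotated TSS (bp, negative upstream), for the B6 list on the left and the NOD list on the right, stacked by class. Upstream of the TSS the lists hold 260 B6 and 351 NOD regions, while the bin from 200 to 400 bp downstream holds 79 B6 and 220 NOD regions.

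The H3K4me3 lists, which played no part in choosing the members, were counted by side as well. RefSeq start sites were used for them, in place of the deposited distances used above. Among H3K4me3 regions with a CpG-rich window within 1 kb of a RefSeq TSS, 154 NOD and 96 B6 regions lay upstream, and 287 and 110 lay downstream. The lists held 12077 NOD and 7587 B6 regions in all, so a higher NOD count on either side is not in itself an excess. CpG-rich windows made up 6.32% of the NOD H3K4me3 list (5.90 to 6.77) and 5.99% of the B6 H3K4me3 list (5.47 to 6.54), with overlapping intervals. CpG-rich windows within 1 kb of a RefSeq TSS made up 3.67% of the NOD H3K4me3 list (3.35 to 4.02) and 2.72% of the B6 H3K4me3 list (2.37 to 3.11), so near start sites the share was higher in NOD for H3K4me3 as well. At all positions of the H3K27ac lists the shares were 11.1% (10.3 to 11.9) and 3.93% (3.45 to 4.47).

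The annotation was checked against the sequence. Over the regions as listed, the median CpG ratio of the CpG island class was 0.818 in B6 (0.757 to 0.882) and 0.856 in NOD (0.814 to 0.892). It was 0.501 in the promoter-TSS class of B6 (0.448 to 0.542) and 0.593 in that of NOD (0.551 to 0.627), and 0.196 and 0.199 in regions with other annotations. The median GC content was 66.2% and 70.2% in the CpG island class, 51.7% and 53.1% in the promoter-TSS class, and 46.8% and 45.3% elsewhere, B6 first. In the CpG island class 45 of 49 B6 windows and 192 of 194 NOD windows were CpG-rich, so the label held for nearly all of its regions. RefSeq promoters of 300 bp had a median CpG ratio of 0.384. Promoter-TSS regions had 0.503 in B6 and 0.602 in NOD, in windows of that length around the region centre. Of the RefSeq promoters, 33.5% (33.0 to 34.0) were CpG-rich, and the promoter-TSS class held 28.9% in B6 (24.3 to 34.0) and 44.7% in NOD (40.5 to 49.1). The median ratio of both strains was thus above that of RefSeq promoters, while the CpG-rich share was above it in NOD and its interval in B6 included it. The sequence is that of the B6 reference genome, and NOD variants were not considered.

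**Figure D3:**
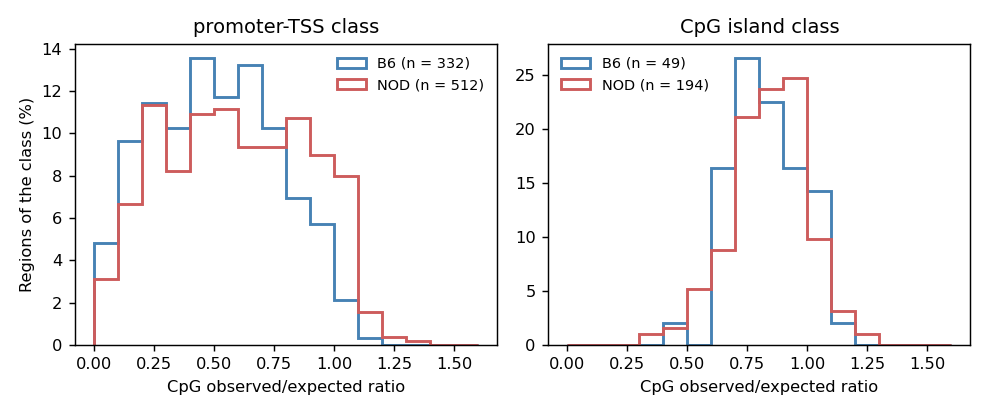
Distribution of the CpG observed/expected ratio over the regions as listed, as a percentage of the regions of the class, for the promoter-TSS class (left; 332 B6 and 512 NOD regions) and the CpG island class (right; 49 and 194). The NOD promoter-TSS distribution extends further to ratios above 0.6 (75th percentile 0.845 against 0.704 in B6).

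Short motifs known from promoters were searched on both strands of 300 bp around the region centre, none contains another, and a match is a string of letters and not a bound site. Members were searched at the region centre and not at the start site, so their shares and those of RefSeq promoters can come from different positions. The GC box (GGGCGG), a binding sequence of Sp1, was present in 71.4% of B6 (57.6 to 82.2) and 70.1% of NOD (63.3 to 76.1) CpG island regions, near the 75.8% of CpG-rich RefSeq promoters. In the promoter-TSS class it was present in 28.0% of B6 (23.5 to 33.1) and 37.3% of NOD (33.2 to 41.6), against 35.7% of all RefSeq promoters and 7.10% and 7.36% of regions with other annotations. The CCAAT box (CCAAT), bound by NF-Y, was found in 29.2% and 28.3% of promoter-TSS regions, against 37.4% of RefSeq promoters. It was found in 16.3% and 7.73% of CpG island regions, against 35.3% of CpG-rich RefSeq promoters. The TATA box (TATAAA) was found in 9.94% and 9.38% of promoter-TSS regions, 13.6% of RefSeq promoters and 17.4% and 18.9% of other regions. Only 1 of 49 B6 and 1 of 194 NOD CpG island regions held it. The ETS site (CCGGAAG) was present in 7.53% and 6.45% of promoter-TSS regions and in 12.2% and 10.8% of CpG island regions. The same count was made for the cyclic AMP response element core (TGACGT), found in 6.93% and 6.05% of promoter-TSS regions and in 12.2% and 4.64% of CpG island regions, B6 first. The E-box with the letters CACGTG was found in 7.23% and 6.25% of promoter-TSS regions and in 4.08% and 7.73% of CpG island regions. The string bound by Kaiso (TCTCGCG) was found in 3.01% and 2.34% of the former and 2.04% and 4.12% of the latter. The NRF1 element, searched with the letters GCGCATG, was found in 3.31% and 4.10% of promoter-TSS regions. It was in 0 of 194 NOD CpG island regions, which allows a share of up to 1.94%, and in 1 of 49 in B6. CpG-rich RefSeq promoters held the ETS site in 19.2% of cases, the cyclic AMP response element core in 13.1% and the E-box in 11.5%. They held the Kaiso string in 6.82% and the NRF1 letters in 8.35%. Over all RefSeq promoters the 5 shares were 8.86%, 7.51%, 7.15%, 2.56% and 3.91%. Regions with other annotations had 1.98% and 1.96%, 1.89% and 2.42%, 3.99% and 4.04%, 0.214% and 0.351%, and 0.836% and 1.01%, B6 first.

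By position within the gene, 41 of 49 B6 and 169 of 194 NOD CpG island regions were annotated to an intron, and in 38 and 163 of these it was the first. The remaining 8 and 25 were intergenic. Their centres lay at a median of 294 bp (B6) and 323.5 bp (NOD) downstream of the nearest TSS. A RefSeq TSS lay inside 130 of the 332 B6 promoter-TSS regions (39.2%, 34.1 to 44.5) and 169 of the 512 NOD regions (33.0%, 29.1 to 37.2), but inside only 6 of 49 and 40 of 194 CpG island regions. RefSeq start sites on both strands within 1 kb of the centre, as at divergent gene pairs, were found for 27.4% of B6 (22.9 to 32.4) and 34.2% of NOD (30.2 to 38.4) promoter-TSS regions. In the CpG island class the shares were 6.12% in B6 (2.10 to 16.5) and 16.5% in NOD (11.9 to 22.4). The start sites of protein-coding genes had such a neighbour in 18.9% of cases (18.4 to 19.4). That share was counted from start sites and those of members from region centres, so they are not like for like. The orientation of these start sites was not tested, so they need not be divergent. Within the promoter-TSS class, start sites on both strands were found for 37.7% of CpG-rich windows in B6 and 42.3% in NOD. At the other windows the shares were lower, at 22.6% and 27.1%. CpG-rich windows were also centred nearer the TSS, at medians of -113.5 bp in B6 and -12 bp in NOD (negative upstream). The others had medians of -412.5 and -488 bp, and the part of this distance was not tested. Most members were assigned to protein-coding genes, namely 309 of 332 and 472 of 512 promoter-TSS regions and 45 of 49 and 187 of 194 CpG island regions, and 21, 36, 3 and 7 in the same order to non-coding RNA genes.

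The deposited annotation placed 11 B6 and 25 NOD regions of the CpG island class more than 2 kb from the nearest TSS. By RefSeq start sites, 5 of the 11 and 19 of the 25 were centred within 1 kb of a TSS, and 6 in each list were more than 2 kb away by both measures. In B6 these 6 included the 2 members at Rex2 and Zfp982 described below and a region 104.0 kb from 2410018L13Rik (chromosome 12, 22906115 to 22906443, score 17). In NOD the 6 included a region in the first intron of Cdx2, a trophectoderm transcription factor gene, 2.57 kb from its start (chromosome 5, 147304559 to 147304792, score 7.77).

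Members had lower median scores than the rest of their lists, with overlapping intervals in B6, and were more often narrow. Scores are differences in H3K27ac signal between the strains in units that the files do not give, so they are compared only within a list. The median score in B6 was 11.8 in the promoter-TSS class (11.2 to 12.9), 10.9 in the CpG island class (8.82 to 12.6) and 12.9 elsewhere (12.6 to 13.2). In NOD it was 11.4 (10.8 to 12.7), 12.1 (10.7 to 12.7) and 13.2 (12.8 to 13.6). The classes separated more clearly at the top, where scores of 50 or more were reached by 15 of 332 B6 (4.52%) and 23 of 512 NOD (4.49%) promoter-TSS regions, against 11.7% and 17.5% of regions with other annotations. In the CpG island class 2 of 49 and 4 of 194 regions reached 50. Promoter-TSS regions carried 4.02% of the summed score above 0 in B6 and 4.66% in NOD, and CpG island regions 0.493% and 1.38%. Most members had the commonest width of their list, 262 bp in B6 and 233 bp in NOD. This was the width of 203 of 332 and 31 of 49 B6 members and of 293 of 512 and 106 of 194 NOD members, promoter-TSS regions first, while 49.7% and 46.0% of the other regions had it.

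The H3K27ac files hold a further column, whose meaning they do not state and which was read here as the slope of the ranked score curve by which HOMER marks super enhancers. In the top 5 rows of each list, none of them a member, the column holds the region size instead. A value of at least 1 in it was reached by 8 B6 and 8 NOD promoter-TSS regions and by 1 CpG island region of each list. These are 2.41% (1.23 to 4.68) and 1.56% (0.794 to 3.05) of the promoter-TSS regions, against 7.2% of all regions of the B6 list and 8.46% of all regions of the NOD list. The members in question included Trim12a, Csrnp3, Platr26, Cd80, Sfrp1, Srcin1, Zfp825 and Rex2 in B6 and St6galnac6, Tdp2, Ly6e, Gm1966, Snx18, Cpeb2, Btn1a1, 2010308F09Rik and Bdh1 in NOD. The region at 2010308F09Rik was the only member with a score below 0 (-8.37), and it was 12333 bp wide, with a value of 9.89 in that column.

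**Figure D4:**
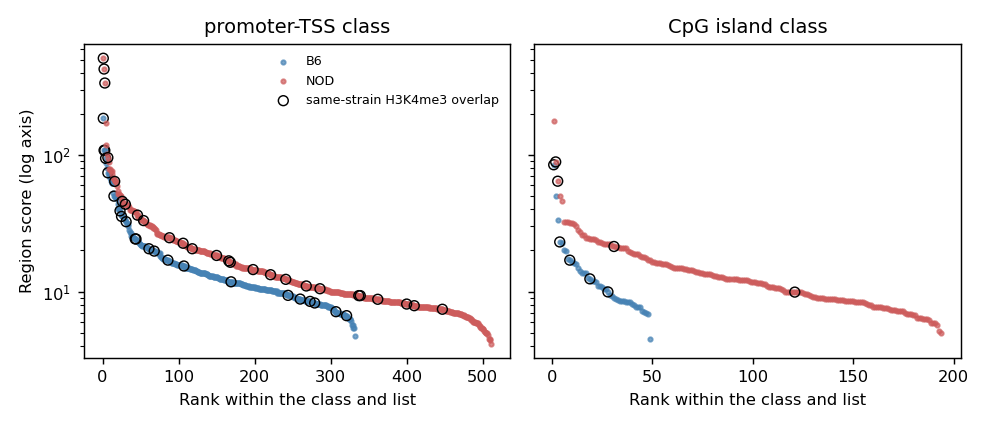
Score of each member (log axis) by its rank within the class and list, for the promoter-TSS class (left) and the CpG island class (right), with B6 in blue and NOD in red and the 1 NOD region with a score below 0 left out. Circled points overlapped a same-strain H3K4me3 region; they include the 3 highest NOD promoter-TSS scores (336.4 to 510.7) and the highest B6 score of each class.

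The highest-scoring promoter-TSS regions of B6 lay at genes of varied function. Trim12a, of the tripartite motif family, had the highest score (185.5, rank 68 of 5525) in a region that spanned its start site (chromosome 7, 104314623 to 104316289). Csrnp3 followed with 108.3. The non-coding RNA gene Platr26 reached 94.5, Cd80, which encodes a costimulatory ligand of T cells, 86.8, and Sfrp1, a secreted Wnt antagonist, 80.6. These 5 regions each contained a RefSeq TSS, and the CpG ratio was below 0.3 in all of them but Sfrp1, where it was 0.696.

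In NOD the highest promoter-TSS score belonged to a region of 25279 bp at St6galnac6, a sialyltransferase gene (chromosome 2, 32586179 to 32611458, score 510.7, rank 22 of 6126). Its centre lay 891 bp upstream of that gene and in an exon of the neighbouring St6galnac4. Tdp2, which repairs DNA breaks left by topoisomerase 2, followed with 425.8 and Ly6e, an interferon-inducible surface protein gene, with 336.4. Both regions were wide, at 12164 and 6960 bp. Gm1966 reached 171.7, the sorting nexin gene Snx18 119.1 and Cpeb2, a regulator of mRNA translation, 101.6. The region at Cpeb2 was the only one of the 6 with a CpG ratio above 0.6 (0.898).

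In the CpG island class of B6, the highest-scoring region, with a score of 84.8 (chromosome 4, 146941998 to 146942860), was assigned to the zinc-finger gene Rex2 at a distance of 79421 bp and lay in an exon of Gm13140. Zfp266 followed with 50.0, then Cmtm7 with 33.2, Zfp982 with 23.1, Dusp6, a phosphatase that inactivates ERK, with 22.8 and Sdcbp2 with 20.3. Rex2 and Zfp982 belong to a cluster of closely similar zinc-finger genes on chromosome 4, where reads of one copy can be placed at another, and their values are uncertain for that reason.

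In NOD a region of 11609 bp at Bdh1, an enzyme of ketone body metabolism, had the highest CpG island score (177.5, chromosome 16, 31423796 to 31435405). Luzp1 followed with 89.0. Its region was annotated 7139 bp upstream of the gene, but contained a RefSeq TSS of Luzp1 13 bp from its centre. AI506816 reached 64.3, Bcl7a, a subunit of SWI/SNF remodelling complexes, 50.4, Tead1, a transcription factor of the Hippo pathway, 46.0 and Kansl1l 32.6.

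H3K4me3 was enriched in the same strain at few of the members. Overlap by at least 1 bp with a B6-enriched H3K4me3 region was found for 22 of 332 B6 promoter-TSS regions (6.63%, 4.42 to 9.83) and 5 of 49 B6 CpG island regions (10.2%, 4.44 to 21.8), against 4.65% of all regions of that list. In NOD the overlap with a NOD-enriched H3K4me3 region was 26 of 512 (5.08%, 3.49 to 7.34) and 4 of 194 (2.06%, 0.805 to 5.18), against 9.86% of all regions. By this measure the members lay near or above the share of their list in B6 and below it in NOD, and the order depended on the distance allowed. Within 1 kb, 12.95% of B6 and 15.8% of NOD promoter-TSS regions and 16.3% of B6 and 13.4% of NOD CpG island regions had a same-strain H3K4me3 region, against 6.79% of all B6 and 15% of all NOD regions. Overlap with a region enriched in the other strain was seen for 6 B6 and 6 NOD promoter-TSS regions (1.81% and 1.17%), against 1.92% of all B6 and 0.702% of all NOD regions. It was seen for 0 of 49 B6 CpG island regions, which allows a share of up to 7.27%, and for 2 of 194 in NOD. The NOD H3K4me3 library had 22750449 tags and the B6 library 14791364, and the lists held 12077 and 7587 regions, so more H3K4me3 regions were available for an overlap in NOD. The headers put the approximate efficiency of the precipitation at 1.32% in B6 and 2.66% in NOD. The tag ratios given below are scaled to library totals only, and the part of this difference in them was not tested.

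Where both marks were enriched in the same strain, the median H3K27ac score of promoter-TSS regions was higher. It was 22.5 in B6 (22 regions) and 17.6 in NOD (26 regions) with such an overlap, against 11.6 and 11.3 without it. These medians are given without intervals. Among promoter-TSS regions wider than the commonest width, 10.9% overlapped in B6 and 7.31% in NOD, and the part of width in the scores was not tested. Promoter-TSS regions that were not CpG-rich overlapped in 17 of 226 cases in B6 (7.52%, 4.75 to 11.7) and 20 of 273 in NOD (7.33%, 4.79 to 11.0). CpG-rich ones overlapped in 5 of 106 (4.72%, 2.03 to 10.6) and 6 of 239 (2.51%, 1.16 to 5.37). The intervals overlapped in both strains.

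The most H3K4me3 tags at a B6 promoter-TSS region were found at Bzw1, with 503 tags in B6 and 77 in NOD. Scaled to the library totals, this is a ratio of 10.05 of B6 over NOD (7.89 to 12.9, exact conditional interval for counting error). At Gm8909, a predicted gene, the tags were 288 and 32 (ratio 13.8, 9.59 to 20.6), and at H2afj, a histone H2A variant gene, 132 and 35 (ratio 5.80, 3.97 to 8.68). The corresponding H3K27ac scores were 39.0, 35.5 and 32.5. Among the regions with the highest H3K27ac scores, Csrnp3 had 94 B6 and 2 NOD tags and Trim12a 32 and 1, while Cd80 and Sfrp1 overlapped no B6-enriched H3K4me3 region. In the CpG island class of B6, Rex2 had 155 B6 and 9 NOD tags (ratio 26.5, 13.6 to 59.0), 2410018L13Rik 115 and 13, and Zfp982 113 and 34.

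In NOD, Ly6e had 1351 NOD and 68 B6 tags, a ratio of 12.9 of NOD over B6 (10.1 to 16.7). The Y-linked translation factor gene Eif2s3y had 452 and 34 (ratio 8.64, 6.10 to 12.6) beside an H3K27ac score of 22.6, and Tdp2 had 305 and 30 (ratio 6.61, 4.54 to 9.97). Gm1966, Snx18 and Cpeb2 overlapped no NOD-enriched H3K4me3 region. Of the CpG island regions, AI506816 had 802 NOD and 64 B6 tags (ratio 8.15, 6.31 to 10.7) and also overlapped a B6-enriched H3K4me3 region. A region assigned to Fcgr1 at 34262 bp, and 194 bp from the RefSeq start of Gm24830, had 190 and 18 tags. The highest CpG island score, at Bdh1, was not accompanied by a NOD-enriched H3K4me3 region.

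The lists shared few genes. Members were assigned to 380 genes in B6 and 704 in NOD, and 10 genes had a member in both. These are 2.63% of the B6 genes, where 2.997% of all protein-coding genes had a NOD member. They are 1.42% of the NOD genes, where 1.62% of all protein-coding genes had a B6 member. The shared genes include the non-coding RNA genes Mir5133, Gm15612 and B130034C11Rik. These shares and those of protein-coding genes are therefore not like for like. No gene had regions of both classes in the same list. By summed score the shared genes included Tmem87b, Clcn3, Pkp4, Mir5133, Gm15612, B130034C11Rik, Slbp, Dus3l and Spata24. At Tmem87b, a B6 promoter-TSS region 267 bp upstream of the start (score 10.2) stood 483 bp from a NOD CpG island region 216 bp downstream of it (score 23.1). Pkp4, a plakophilin of cell junctions, showed the same order, with B6 518 bp upstream (7.13) and NOD 1013 bp downstream (24.4). Clcn3, a chloride channel gene, and Slbp, the histone mRNA stem-loop binding protein, showed the opposite order. At Clcn3 the B6 region lay 570 bp downstream (11.9) and the NOD region 585 bp upstream (20.2), and at Slbp the B6 region lay 460 bp downstream (10.9) and the NOD region 433 bp upstream (7.54). By RefSeq, the NOD regions at Tmem87b and Pkp4 contained a start site, and the other regions at these 4 genes did not. In all, 3 B6 members overlapped a NOD member, although the strain not listed served as the background in each call. The share of all listed regions that overlapped the other list is not given here.

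By chromosome, the NOD share of the promoter-TSS class ranged from 41.9% on chromosome 15 (13 NOD and 18 B6 regions, 26.4 to 59.2) to 81.4% on chromosome 13 (35 and 8, 67.4 to 90.3), leaving out the Y chromosome with 1 region. It was 78.0% on chromosome 8 (39 and 11), 78.6% on chromosome 12 (22 and 6) and 76.3% on chromosome 10 (29 and 9). Regions with other annotations had NOD shares of 53.3%, 61.8%, 50.2% and 51.9% on chromosomes 13, 8, 12 and 10, so that only chromosome 8 was high in both. On chromosomes 6 and X, where the other regions lay furthest from even without the Y chromosome (33.9% and 70.9%), the promoter-TSS shares were 53.3% (36.1 to 69.8) and 57.9% (42.2 to 72.1).

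**Figure D5:**
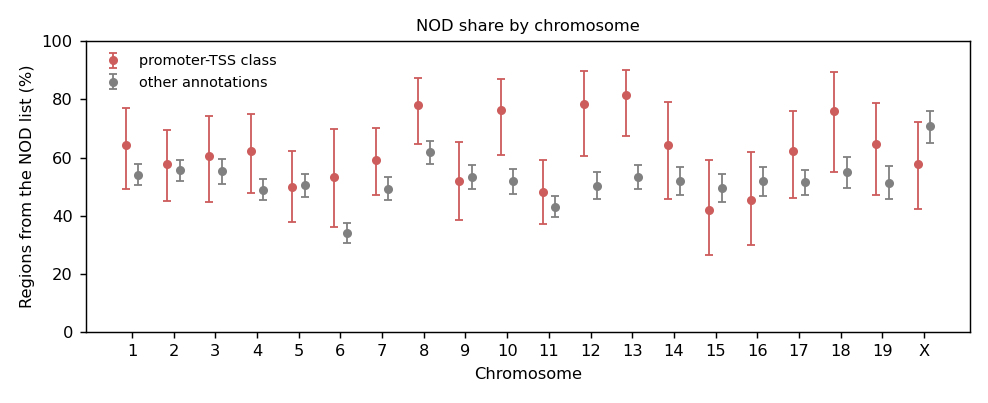
Percentage of regions from the NOD list on each chromosome for the promoter-TSS class (red) and for regions with other annotations (grey), with 95% Wilson intervals. Promoter-TSS shares reach 81.4% on chromosome 13, where the other regions are at 53.3%.

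Members were also counted in 13 gene lists. Of 21887 protein-coding genes, 354 (1.62%, 1.46 to 1.79) had a member in B6 and 656 (2.997%, 2.78 to 3.23) in NOD, which is the background for the counts that follow. No member of either class was assigned to the 27 pluripotency factors and markers, the 26 germline genes, the 15 two-cell-stage genes found in the annotation or the 21 glycolysis genes. For the pluripotency list, 0 of 27 allows a share of up to 12.5%. Factors such as Pou5f1, Sox2 and Nanog thus had no strain-enriched region of these classes, which does not say that their promoters were unmarked, since regions marked alike are not listed.

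Zinc-finger genes, whose products include many repressors of transposable elements, were the list with most members. Of 424 such genes, 25 had a member in NOD (5.90%, 4.03 to 8.56) and 9 in B6 (2.12%, 1.12 to 3.98). The NOD members comprised 15 promoter-TSS and 10 CpG island regions, with the highest scores at Zfp182 (78.7), Zfp110 (39.6), Zfp493 (33.9) and Zfp827 (31.6). The B6 members comprised 5 and 4, with the highest at Zfp825 (62.7), Zfp266 (50.0), Zfp932 (28.1) and Zfp982 (23.1). Many of these genes are members of clusters of similar copies, and how reads were divided among the copies was not tested.

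Among innate immune genes, 3 of 44 had a NOD member (6.82%, 2.35 to 18.2) and 0 a B6 member. They were Ly6e (336.4), the antiviral enzyme gene Oas1a (19.9, 377 bp upstream) and Mavs, the mitochondrial adaptor of RNA sensing (14.5, 813 bp upstream). Of the 35 antigen presentation genes only Gm8909 had a member, in B6. Among genes linked to H3K4 methylation and to H3K27 acetylation or methylation, 3 of 21 had a NOD member. They were the deacetylases Hdac1 (24.7) and Hdac2 (7.32) and the H3K4 methyltransferase Kmt2b (14.6). Ribosomal protein genes had 3 NOD members of 89 (among them Rpl5 with 25.2 and Rpl18 with 20.6), near the background. Imprinted genes had 2 NOD members of 38, Impact (30.2) and Airn (22.6). For DNA methylation and demethylation, Uhrf2 (23.4) had a member in NOD and the thymine DNA glycosylase gene Tdg (10.1) in B6, and of 51 lineage transcription factors only Cdx2 had a member. Among 19 genes named by the study, only Zfp982 had a member, in B6. That region was assigned to Zfp982 at 100094 bp and lay in an exon of Gm13135, with Zfp988 as the gene of the nearest RefSeq TSS. With 3 or fewer genes in each list, the intervals included the background share of the respective strain except for the genes linked to H3K4 and H3K27 in NOD (14.3%, 4.98 to 34.6). This exception rests on 3 genes, with 13 gene lists counted in both strains.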

How the data were processed

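The 4 ChIP-Seq libraries were analysed from the lists that the authors deposited. Per the methods, reads were mapped to mm10 with bowtie2 and processed with HOMER v4.8, while the submitters' processing notes name mm9; coordinates here are used as mm10. The deposited H3K27ac score comes from the HOMER super enhancer pipeline, and the column beside it was read as its slope. The meaning of that column is not stated. The score is a difference between strains on a scale not given in the sources used here. For H3K4me3, the deposited tag count, the normalised signal per 10000000 tags and the fold ratio over the other strain came from the histone style of HOMER with a required ratio of 4 over the other strain; the ratios printed were recomputed from tags and library totals. Where the authors gave a placeholder for no tags, 0 was used. The authors' p-values were not used.

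Members, gene lists and comparisons were chosen with earlier results of these data known. Classes, overlaps and shares were computed in Python 3.11.15 with pandas 2.3.3, numpy 2.4.6 and scipy 1.17.1, and sequence and RefSeq start sites came from GRCm38.p6. All 381 B6 and 706 NOD members matched a RefSeq gene by gene ID. Named regions were the 6 highest scores and the 3 with most same-strain H3K4me3 tags per class and list, the genes in both lists and the members of the gene lists; a few of these are not reported here. The functions for overlap, intervals and sequence were first tested on simulated data. No test between strains was made, since each group had 1 library. Alternatives were other thresholds, classes, widths and windows.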

Additional observations from a re-analysis of the deposited data

How the results depend on the processing

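Of 81 values computed under alternative settings for 22 results, 61 stayed within the interval of the value reported, and 20 moved. No paired analysis was possible because the result comes from no test and each group has 1 library.

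The promoter-TSS share moved to 5.39% in B6 and 7.38% in NOD for scores at or above the list median, to 4.72% and 6.77% for regions wider than the commonest width, and to 9.01% and 11.8% when RefSeq start sites set the class. The CpG island share moved to 0.611% and 2.68%, and to 0.659% and 2.72%, under the first 2 of these settings. It moved to 3.93% and 11.1% when base composition set the class. That setting counts every CpG-rich window of a list, promoter-TSS regions included, and so covers a wider set. The NOD share exceeded the B6 share under each setting run, by 1.31 to 1.43 times for promoter-TSS and 2.81 to 4.38 times for CpG island regions. The value of 2.81 came from the class set by base composition. The width setting, the 5000 highest scores per list and the 300 bp window were chosen after seeing the data.

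H3K4me3 overlap moved for promoter-TSS regions to 10% in B6 and 7.52% in NOD for scores at or above the median, to 10.9% in B6 for wider regions, to 12.95% and 15.8% within 1 kb, and to 2.71% and 1.95% with 50 or more tags. For NOD CpG island regions it moved to 13.4% within 1 kb. The cause of these changes was not tested, apart from the settings' own construction. The few tags in most H3K4me3 regions and the unknown H3K27ac depth limit the precision.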
